A study of Mus musculus with 2 samples.

Results

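Keratin-associated proteins fill the space between the keratin filaments of hair, where their cysteines form disulfide bonds. Their genes, named Krtap in the mouse, are small, mostly lie in tandem clusters and are expressed in cells of the hair follicle. The proteins are usually divided into ultra-high sulfur, high sulfur and high glycine-tyrosine types by their amino acid composition. H1t is a linker histone variant of the testis that binds nucleosomes in male germ cells, and the series asked where it lies in the genome.

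Members were the protein-coding genes on chromosomes 1 to 19 whose symbol starts with Krtap in GENCODE M21, which is built on GRCm38, the assembly called mm10. This rule took 57 of 20807 autosomal coding genes and used no measured value. Of these, 24 lay on chromosome 16, 23 on chromosome 11, 5 on chromosome 7, 3 on chromosome 10 and 2 on chromosome 1. The first 4 sets were treated as clusters, since each held at least 3 Krtap genes with no gap above 500 kb. All 57 genes have a single-exon transcript with the longest coding sequence, the median gene length was 892 bp, and 42 are on the minus strand. Krtap14 and Krtap15 overlap each other, and their gene records of 7479 bp and 9630 bp include further transcripts with introns.

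The data come from spermatogenic cells of ICR mice aged 6 weeks. The H1t group is 1 library of chromatin cut enzymatically and precipitated with a rabbit polyclonal antibody against H1T. Its reference, 1 input library of the same kind of cells without antibody, was not analysed here. The cells are a mixture of germ cell stages isolated from testes, and whether animals were pooled is not given in the sources used here. Peak positions for the H1t library and 1 score per peak, the authors' own value, were the only measurements. The list held 76546 peaks, 72438 of them on the autosomes, where the median score was 73.8. No score was below 50 and the highest was 3100. There is no replicate, so nothing below has a p-value, and read depth is unknown, so a gene without a peak had no peak that passed the authors' calling, not a known lack of H1t. The reads were placed on the mm10 reference, not on an ICR genome.

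H1t peaks were spread unevenly over the classes and the clusters of Krtap genes. Sorted by codons, 21 members were ultra-high sulfur genes (at least 30% cysteine codons), 15 of the rest were high glycine-tyrosine genes (at least 35% glycine and tyrosine codons) and 21 were high sulfur genes. A peak overlapped the gene by at least 1 bp in 15 of 21 ultra-high sulfur genes (71.4%), in 4 of 21 high sulfur genes (19.05%) and in 0 of 15 high glycine-tyrosine genes. Over all members the count was 19 of 57 (33.3%). Among all autosomal coding genes 50.4% held a peak, and among the other coding genes under 5 kb, which resemble Krtap genes more closely in length, 25.1% did. Their median length of 2725 bp was still above the 892 bp of Krtap genes. Of the other coding genes under 2 kb, 267 of 1344 (19.9%) held a peak. The ultra-high sulfur share thus lay above all of these backgrounds. The share of all members lay below that of all coding genes and above those of the shorter genes. The classes differ in which clusters hold them, and the parts of class and cluster cannot be told apart. All 15 high glycine-tyrosine genes lie on chromosome 16, where 0 of 9 high sulfur genes had a peak either. Their coding sequences are also short, 171 to 465 bp, with under 60% GC. Of the other coding genes under 2 kb with under 500 bp of coding sequence and under 60% GC, 8.45% had a peak. The count of 0 of 15 lay close to that share. On chromosome 11, the cluster that holds both sulfur classes in number, the counts were 7 of 12 ultra-high sulfur genes (58.3%) and 4 of 11 high sulfur genes (36.4%). At the borders of the classes, Krtap2-4 had 29.8% cysteine codons and Krtap10-4 had 30.3%. Krtap7-1 fell among the high sulfur genes with 29.9% glycine and tyrosine codons. Some ultra-high sulfur genes also met the glycine and tyrosine threshold, but cysteine was counted first. They were Krtap5-2 (36.0%), Krtap5-3 (39.3%), Krtap28-10 (38.7%) and Krtap28-13 (42.0%), and all but Krtap28-13 had a peak. The count of 0 of 15 thus depends on this order.

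Short stretches illustrate the coding sequences, but the classes are defined over the whole coding sequence. The stretches below are 120 bases of coding strand, in frame, from GENCODE M21 transcripts on mm10, and capitals mark cysteine codons. For the genes with a peak they are centred on its midpoint. For Krtap2-4, Krtap6-1 and Krtap19-1, which had none, they lie in the middle of the coding sequence, and for Krtap31-2, which had none either, at the position shown for Krtap31-1.
Krtap5-2: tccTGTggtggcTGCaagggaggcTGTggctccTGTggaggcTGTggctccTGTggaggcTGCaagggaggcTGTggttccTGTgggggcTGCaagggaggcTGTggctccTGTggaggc
Krtap4-16: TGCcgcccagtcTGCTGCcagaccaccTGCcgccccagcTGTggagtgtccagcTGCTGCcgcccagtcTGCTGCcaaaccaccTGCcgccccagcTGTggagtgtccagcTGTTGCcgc
Krtap31-1: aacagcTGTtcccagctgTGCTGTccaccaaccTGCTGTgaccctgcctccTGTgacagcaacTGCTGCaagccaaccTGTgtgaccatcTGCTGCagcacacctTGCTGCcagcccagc
Krtap31-2: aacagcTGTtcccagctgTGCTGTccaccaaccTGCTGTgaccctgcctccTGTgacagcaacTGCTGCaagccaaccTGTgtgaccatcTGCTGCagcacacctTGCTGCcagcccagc
Krtap2-4: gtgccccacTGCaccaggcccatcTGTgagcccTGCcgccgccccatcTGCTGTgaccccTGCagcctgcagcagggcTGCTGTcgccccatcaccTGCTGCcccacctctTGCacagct
Krtap6-1: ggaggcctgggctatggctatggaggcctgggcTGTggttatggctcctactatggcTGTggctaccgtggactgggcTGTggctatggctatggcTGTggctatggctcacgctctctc
Krtap19-1: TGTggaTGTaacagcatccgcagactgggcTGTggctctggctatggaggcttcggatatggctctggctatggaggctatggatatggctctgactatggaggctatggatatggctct
The Krtap5-2 stretch (chr7:142175405-142175524, minus strand) holds 12 cysteine codons among its 40, and the Krtap4-16 stretch (chr11:99851135-99851254, minus) holds 13. The Krtap31-1 and Krtap31-2 stretches (chr11:99908144-99908263 and chr11:99936515-99936634, both plus) hold 13 each and are identical. These genes are of the high sulfur class, with 25.4% cysteine codons over the whole coding sequence. Single stretches thus do not separate the sulfur classes. The stretch of Krtap2-4 (chr11:99614529-99614648, minus), also a high sulfur gene, has 11, and this gene had no peak. The stretches of the high glycine-tyrosine genes Krtap6-1 (chr16:89031775-89031894, plus) and Krtap19-1 (chr16:88869209-88869328, minus) have 4 and 3. GC content was 66.7% in the Krtap5-2 stretch, 69.2% in those of Krtap4-16 and Krtap2-4, 60% in those of Krtap31-1 and Krtap31-2, 60.8% in that of Krtap6-1 and 53.3% in that of Krtap19-1. The Krtap31-1 stretch, under a peak, was thus lower in GC than those of Krtap6-1 and Krtap2-4, which had none.

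The chromosome 7 cluster, which spans 130 kb, holds the Krtap5 genes. These encode ultra-high sulfur proteins also rich in glycine. All 5 had a peak in the gene. Krtap5-2 had the highest score of any peak in a Krtap gene, 194, at chr7:142174788-142176137, a peak of 1350 bp. Scores were 173 in Krtap5-5 (chr7:142229181-142230022), 126 in Krtap5-3, 106 in Krtap5-4 and 58.2 in Krtap5-1. In this cluster 4 of the 5 peaks in Krtap genes were thus above the autosomal median, and Krtap5-1 was near the lower limit of the list.

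On chromosome 10 the cluster spans 117 kb and lies within the gene Tspear. Its ultra-high sulfur genes Krtap10-4 and Krtap10-10 each had a peak, with scores of 79.6 and 60.02. Krtap12-1, a high sulfur gene by codons, had none, and its nearest peak was 4327 bp away. Both Krtap10 genes also overlap the predicted gene Gm2696, so their peaks cannot be given to a Krtap10 gene or to Gm2696 alone.

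The chromosome 11 cluster lies among the type I keratin genes and spans 444 kb. Here 11 of 23 Krtap genes had a peak. The Krtap4 genes, ultra-high sulfur, had one in 6 of 8 cases. Scores were 114 in Krtap4-16 (chr11:99850778-99851609), 109 in Krtap4-8, 107 in Krtap4-9, 88.7 in Krtap4-6, 70.2 in Krtap4-2 and 64.0 in Krtap4-1. The exceptions were Krtap4-7, whose nearest peak lay 627 bp away and scored 50.2, and Krtap4-13, with 4578 bp to the nearest. The other families of the cluster were mixed. Krtap1-4 had a peak with a score of 125 and its neighbours Krtap1-3 and Krtap1-5 had none. Krtap9-5 had one with a score of 54.6, and Krtap9-1 and Krtap9-3 had none. Krtap16-1 (86.4) and Krtap29-1 (52.2), both with long coding sequences, had one each. The 3 Krtap3 genes, Krtap2-4 and Krtap17-1 had none, and Krtap3-3 was the member of this cluster farthest from a peak, at 32199 bp.

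In the chromosome 16 cluster, the longest at 960 kb, 0 of 24 Krtap genes had a peak. It holds all 15 high glycine-tyrosine genes (Krtap6, Krtap8, Krtap16-3, Krtap19, Krtap20, Krtap21 and Krtap22) and 9 high sulfur genes such as Krtap11-1, Krtap13 and Krtap24-1. Peaks were present between the genes, since 29 of the 31 midpoints in the cluster lay outside all coding genes. The others lay in 2310034C09Rik and 2310057N15Rik, coding genes without a Krtap symbol. The nearest peak to any Krtap gene was 3345 bp away, beside Krtap20-2. For 18 of the 24 Krtap genes no peak lay within 10 kb. Krtap19-1 was the farthest member of all, at 87532 bp. The pair on chromosome 1, both of which have over 40% cysteine codons, was divided. Krtap28-10 had a peak with a score of 50.9, and Krtap28-13 had none, with 18440 bp to the nearest.

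**Figure D1:**
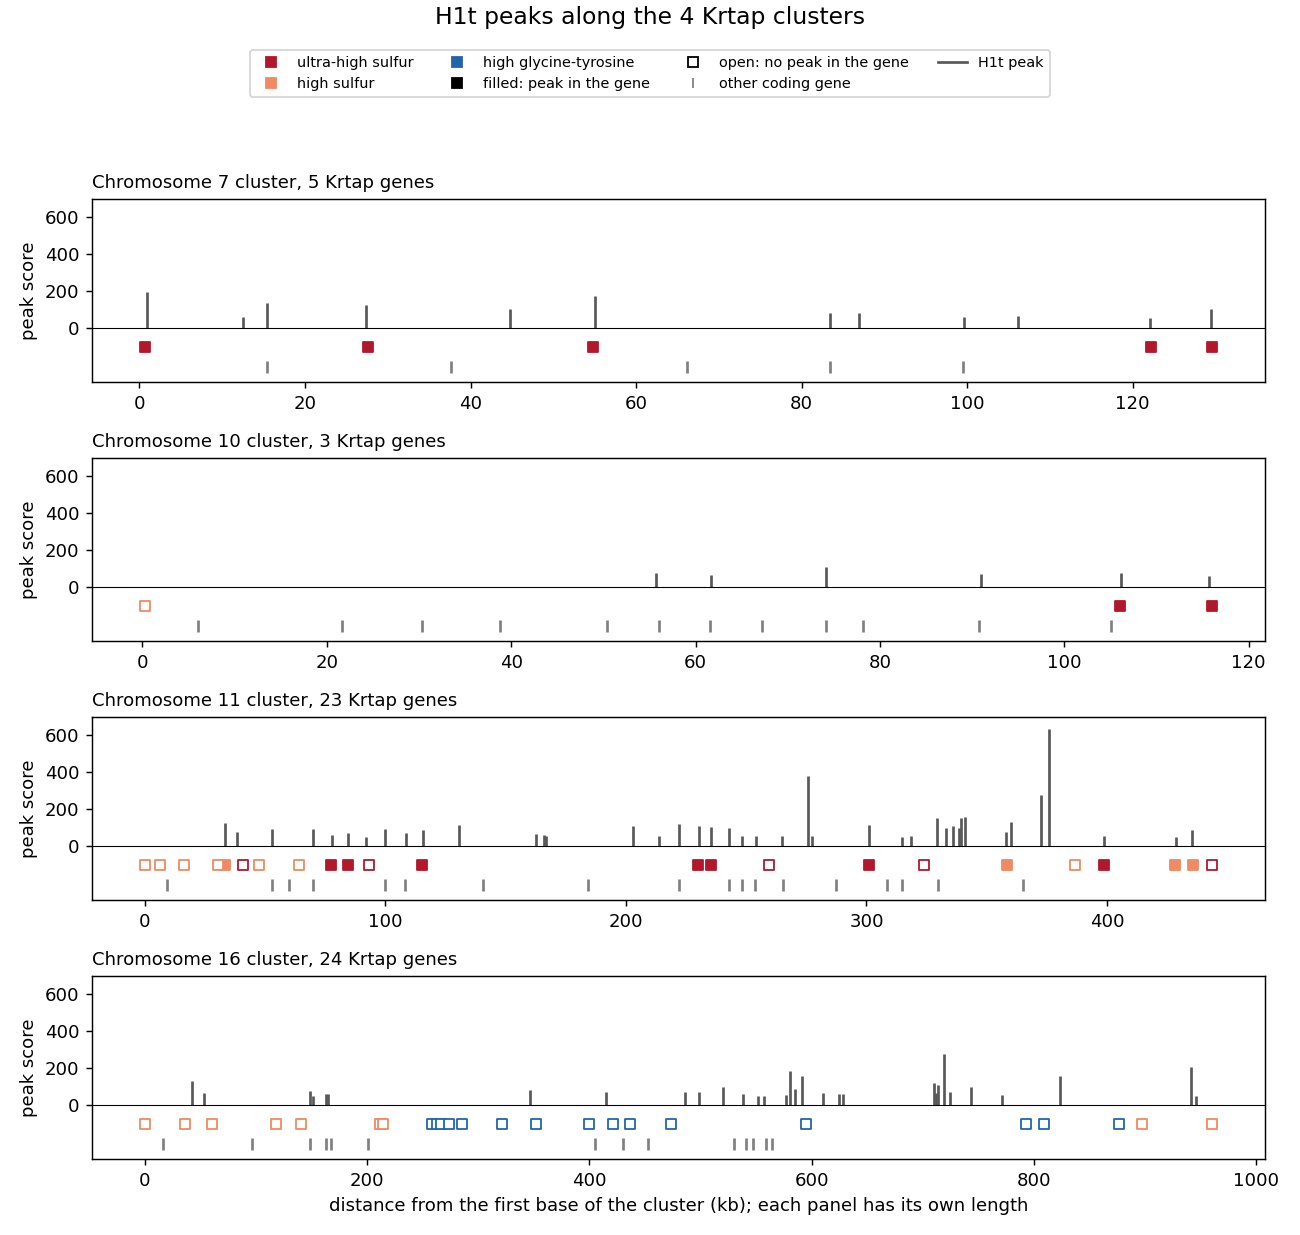
H1t peaks along the 4 Krtap clusters. The horizontal axis is the distance from the first base of each cluster in kb, vertical lines are peaks with their score as height, squares are Krtap genes coloured by class (filled with a peak in the gene, open without) and grey ticks are other coding genes. All 5 squares are filled on chromosome 7 and all 24 are open on chromosome 16, where 31 peak midpoints lay outside Krtap genes.

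The peaks lay on the bodies of the genes rather than before them. A peak midpoint within 1 kb of the start was found for 18 of 57 members, with 24.2% for all autosomal coding genes and 19.4% for the other coding genes under 5 kb. The member with a peak in the gene but not in this window was Krtap16-1, whose midpoint was 1057 bp downstream. In all 19 genes the midpoint fell in the coding sequence, between 211 bp and 1057 bp downstream of the start, with a median of 370 bp. These genes were chosen by an overlap and have a median length of 1015 bp, against 780 bp for their peaks. The overlap and the 1 kb window thus fix much of this placing, and the 18 genes are no separate support for it. The peak took in the whole coding sequence in 13 of the 19 and reached over the start in 10. Coverage of ultra-high sulfur genes was highest from 250 bp downstream, at 71.4% of genes, and was 38.1% at the start itself and 0% at 1 kb upstream. In the other coding genes under 5 kb it was 14.1% at its highest, 11.4% at the start and 1.99% at 1 kb upstream.

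**Figure D2:**
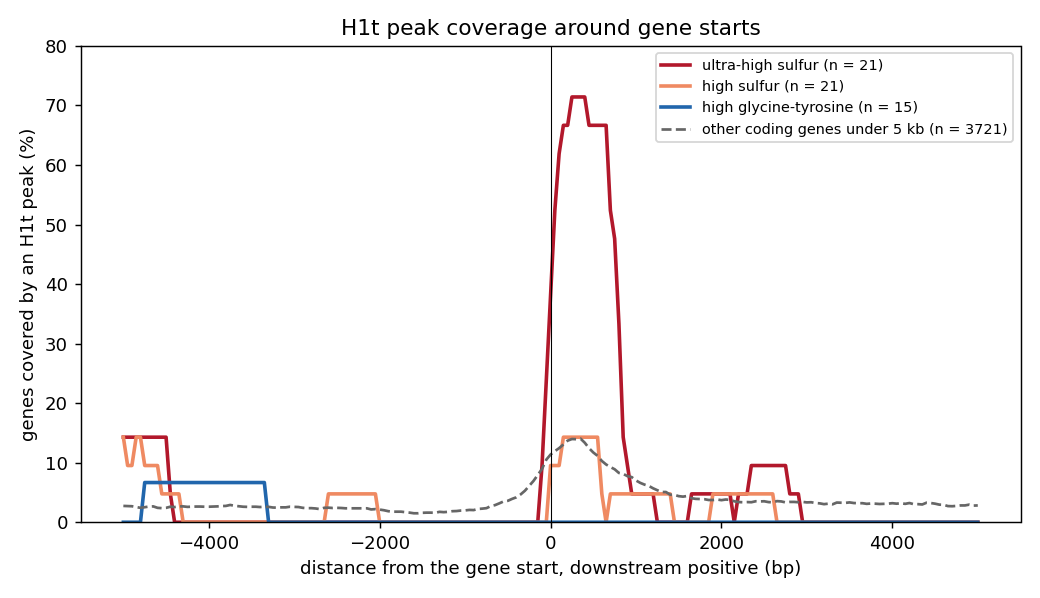
Share of genes covered by an H1t peak at each distance from the gene start, in steps of 50 bp, for the 3 Krtap classes and for other coding genes under 5 kb. Ultra-high sulfur genes reach 71.4% within the gene, and no high glycine-tyrosine gene is covered at the start.

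The sequence upstream of the starts differed from the coding sequence. RefSeq promoter sequences (GRCm38.p6) were found for 51 of the 57 members, and 50 of the 51 starts lay within 100 bp of those of GENCODE. In the 250 bases upstream the median GC content was 43.2% for ultra-high sulfur, 41.2% for high sulfur and 37.2% for high glycine-tyrosine genes. Medians of the coding sequences were 64.8%, 58.6% and 55.7% in the same order of classes. Peaks reached into these 250 bases in 8 of 51 members, 7 of them ultra-high sulfur genes, and covered at most 56.0%, in Krtap4-6. How often peaks reach into the same bases of other genes was not counted, so this share has no background. The letters TATAAA, the core of the TATA box, were searched on both strands with TTTATA as the reverse. They occurred in 41 of 51 Krtap windows (80.4%), with 12.2% of the 31345 other autosomal windows of the same length. They were present in 15 of 17 ultra-high sulfur, 15 of 19 high sulfur and 11 of 15 high glycine-tyrosine windows. Median GC content was 40.4% in the Krtap windows and 52.4% in the others, and these letters hold no G or C. In the last 50 bases before the start, TATAAA on the strand of the gene occurred in 34 Krtap windows (66.7%) and in 2.56% of the others. The last 150 bases before the start are shown for 2 genes whose peaks reach farthest upstream and for 1 without a peak, with these letters in capitals.
Krtap5-2: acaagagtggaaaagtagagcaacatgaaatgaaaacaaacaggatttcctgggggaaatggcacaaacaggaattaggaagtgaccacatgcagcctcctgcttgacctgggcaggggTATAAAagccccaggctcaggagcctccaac
Krtap4-6: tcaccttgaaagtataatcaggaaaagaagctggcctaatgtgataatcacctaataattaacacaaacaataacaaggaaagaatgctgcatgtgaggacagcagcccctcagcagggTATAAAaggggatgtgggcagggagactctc
Krtap6-2: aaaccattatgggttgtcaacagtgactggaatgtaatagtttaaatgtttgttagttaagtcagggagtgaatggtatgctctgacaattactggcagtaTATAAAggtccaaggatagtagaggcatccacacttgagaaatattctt
They lie at chr7:142176006-142176155, chr11:99665961-99666110 and chr16:89420112-89420261, all on the minus strand. Peaks covered 52.8% of the 250 bases upstream of Krtap5-2, 56.0% of those of Krtap4-6 and 0% of those of Krtap6-2.

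Over all members, GC content and the length of the coding sequence were higher with a peak than without. Members with a peak had a median coding GC content of 64.4%, against 56.6% in members without one. The ranges overlapped, from 53.8% to 67.2% with a peak and from 46.5% to 68.4% without. Within the ultra-high sulfur class the median GC content was 64.4% with a peak and 65.5% without, and within the chromosome 11 cluster it was 64.7% with a peak and 64.3% without. The gap over all members was thus not seen inside that class or that cluster. Coding length had a median of 663 bp in members with a peak and 387 bp in members without. It was 663 bp with a peak and 499.5 bp without in the ultra-high sulfur class, and 606 bp with a peak and 400.5 bp without on chromosome 11. Of the 17 members with a coding GC content of at least 60% and at least 500 bp of coding sequence, 14 had a peak. Of the 11 with such a GC content and a shorter coding sequence, 1 had a peak, and among these 11 are the 3 Krtap3 genes, Krtap2-4 and Krtap17-1. Members under 60% GC had a peak in 4 of 12 longer and 0 of 17 shorter cases. In other coding genes under 2 kb the 2 middle groups stood in the other order. Among those of at least 60% GC, 103 of 169 (60.9%) with longer and 64 of 215 (29.8%) with shorter coding sequence had a peak. Among those under 60% GC the counts were 64 of 534 (12.0%) and 36 of 426 (8.45%).

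Within bands of GC content the Krtap genes did not stand apart in 1 direction from other coding genes under 2 kb. From 45% to 50% GC, 0 of 3 Krtap genes had a peak, against 1.78% of the others, and from 50% to 55% it was 1 of 9 (11.1%) against 5.83%. From 55% to 60% it was 3 of 17 (17.6%) against 31.4%. From 60% to 65%, 12 of 20 Krtap genes had one, against 46.6% of the others, and at 65% or more it was 3 of 8 (37.5%) against 39.3%. The class with the most cysteine codons also had the highest median GC content, but the sulfur classes overlapped in GC content. Among genes of at least 60% GC, most ultra-high sulfur genes had a peak. Krtap1-4 was the only high sulfur gene at this GC content with one. The others (Krtap12-1, the 3 Krtap3 genes, Krtap1-5, Krtap9-3 and Krtap2-4) all had under 500 bp of coding sequence. Most ultra-high sulfur genes at this GC content had at least 500 bp. Sulfur class thus went together with coding length there, and their separate parts were not tested. Whether the GC content of a sequence altered peak calling was not tested, since the input was not analysed.

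**Figure D3:**
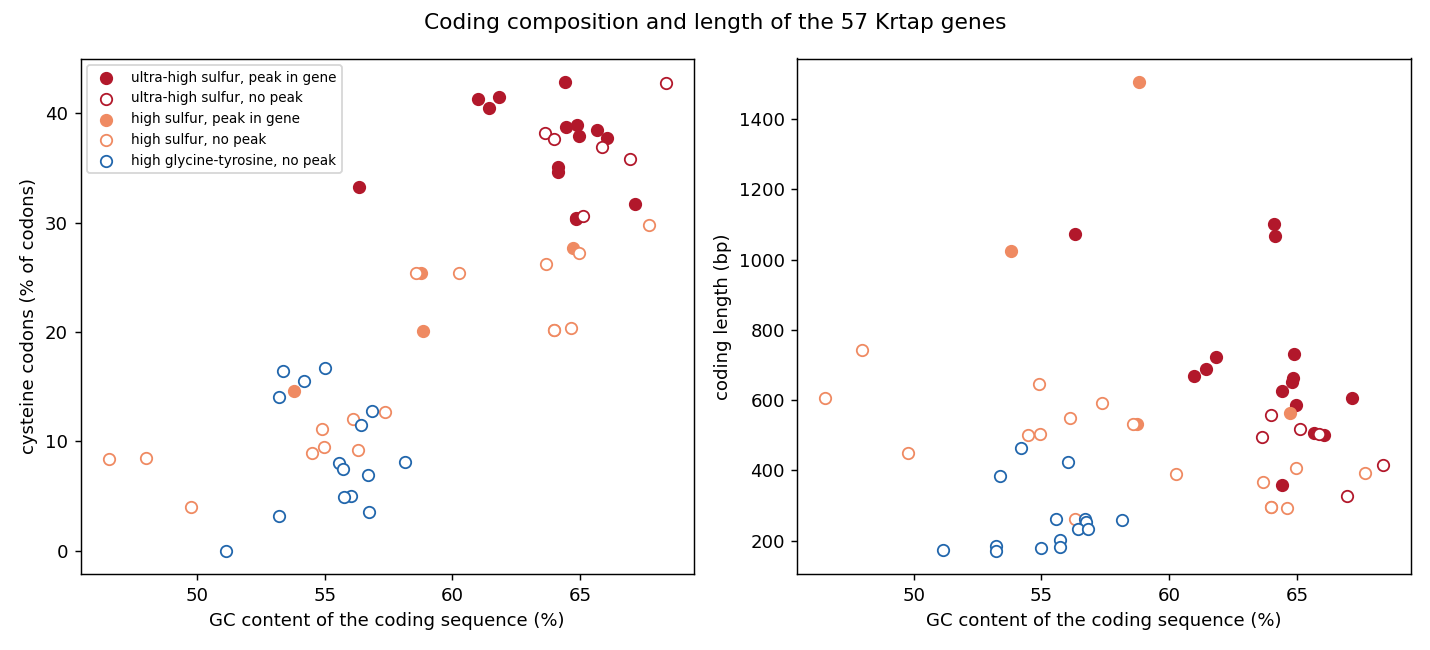
GC content of the coding sequence (horizontal, %) against the share of cysteine codons (left, %) and the coding length (right, bp) of the 57 Krtap genes. Filled points had a peak in the gene, and of the genes at 60% GC or more they are 14 of 17 with at least 500 bp of coding sequence and 1 of 11 with less.

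Some Krtap genes are near copies of other genes, which limits what a peak in 1 of them says. Stretches of 50 bases from the coding sequence of each member were looked up in the transcripts of all other annotated genes. No stretch was shared for 16 members, of which 4 had a peak (Krtap4-16, Krtap9-5, Krtap16-1 and Krtap29-1). Up to 50% of stretches were shared in 29 members, 10 with a peak, and more than 50% in 12 members, 5 with a peak. Krtap31-1 and Krtap31-2 differ at 6 of 531 coding bases (98.9% identity), yet Krtap31-1 had a peak with a score of 80.1 and Krtap31-2 had none, with 8427 bp to the nearest. Krtap3-2 and Krtap3-3 have identical coding sequences of 297 bp, and neither had a peak. How reads that match several positions were treated is not given in the sources used here, so peaks in such genes are uncertain as to the copy. For the same reason the lack of a peak in such genes is uncertain.

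The scores of the peaks in Krtap genes lay well below the highest of the list. They had a median of 86.4 over 19 peaks, with 73.8 for all 72438 autosomal peaks, and ran from 50.9 to 194. In 8 members the score was 100 or more and in 4 it was under 60. Widths had a median of 780 bp, against 699 bp on the autosomes. With peaks at or above the median score alone, 12 of 57 members (21.1%) still had a peak, against 29.6% of all autosomal coding genes and 12.6% of the other coding genes under 5 kb. Those 12 were 9 ultra-high sulfur and 3 high sulfur genes.

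Spacers, the cluster sequence outside all coding genes, held the strongest peaks of the chromosome 11 and 16 clusters. On chromosome 7 the strongest peak was that of Krtap5-2 (194), and the best in a spacer scored 107. On chromosome 11 the 408 kb of spacer held 19 peak midpoints, or 46.6 per Mb, against 24.9 per Mb in all sequence outside coding genes of that chromosome and 32.1 on the autosomes. Peaks covered 5.08% of this spacer, against 2.09% for the chromosome. Both values are averages over an uneven spacer. Several of its peaks lay close together from chr11:99882826 to chr11:99891719 and from chr11:99922026 to chr11:99927864. On chromosome 7 the 120 kb of spacer held 4 midpoints (33.3 per Mb, against 30.4 for the chromosome), and on chromosome 16 the 926 kb held 29 (31.3 per Mb, against 34.1). The cluster on chromosome 10 has no sequence outside coding genes because Tspear runs through it. With exons of coding genes left out in place of whole genes, its 105 kb of remaining sequence held 0 midpoints, and peaks covered 0.630% of it.

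None of the 5 strongest peaks over all clusters touched a coding gene. The first, with a score of 632 and 4066 bp wide, lay at chr11:99923799-99927864, 8427 bp from Krtap31-2, and the peak at chr11:99922026-99923578 beside it scored 276. Another at chr11:99824769-99826680, 14877 bp from Krtap4-13, scored 381. On chromosome 16 the strongest lay at chr16:89329010-89330948 (276), 72270 bp from Krtap21-1, and chr16:89551179-89553111 (208), 17065 bp from Krtap11-1. The median score in spacers was 99.9 on chromosome 11, 70.9 on chromosome 16 and 74.4 on chromosome 7, where the peaks in Krtap genes had a median of 126. Repeat content and copy number of the spacers were not computed.

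Counting 10 kb on each side of the gene, 35 of 57 members had a peak (61.4%), against 70.4% of all autosomal coding genes and 59.7% of the other coding genes under 5 kb. The count was 20 of 21 for ultra-high sulfur, 12 of 21 for high sulfur and 3 of 15 for high glycine-tyrosine genes. Neighbouring members share peaks in these windows. Krtap9-1 on chromosome 11 had the most, 4 peaks within 10 kb but none in the gene, and Krtap4-1, Krtap4-2, Krtap4-7, Krtap4-8, Krtap4-9 and Krtap10-10 had 3 each. On chromosome 16, Krtap13 and Krtap20-2 had 2 each, and Krtap6-1, Krtap16-3, Krtap26-1 and Krtap27-1 had 1 each. The median was 4.80 peaks per 100 kb over all members, against 2.59 for other coding genes and 4.22 for those under 5 kb. By cluster the median was 9.44 on chromosome 7, 9.53 on chromosome 10, 9.54 on chromosome 11 and 0 on chromosome 16. These values move in steps, since 4.80 stands for 1 midpoint in the window of a short gene and 9.44 to 9.54 for 2. They also fall with gene length, which had a median of 892 bp in members and 2725 bp in the others under 5 kb. The gap between 4.80 and 4.22 is thus no sign of more peaks.

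**Figure D4:**
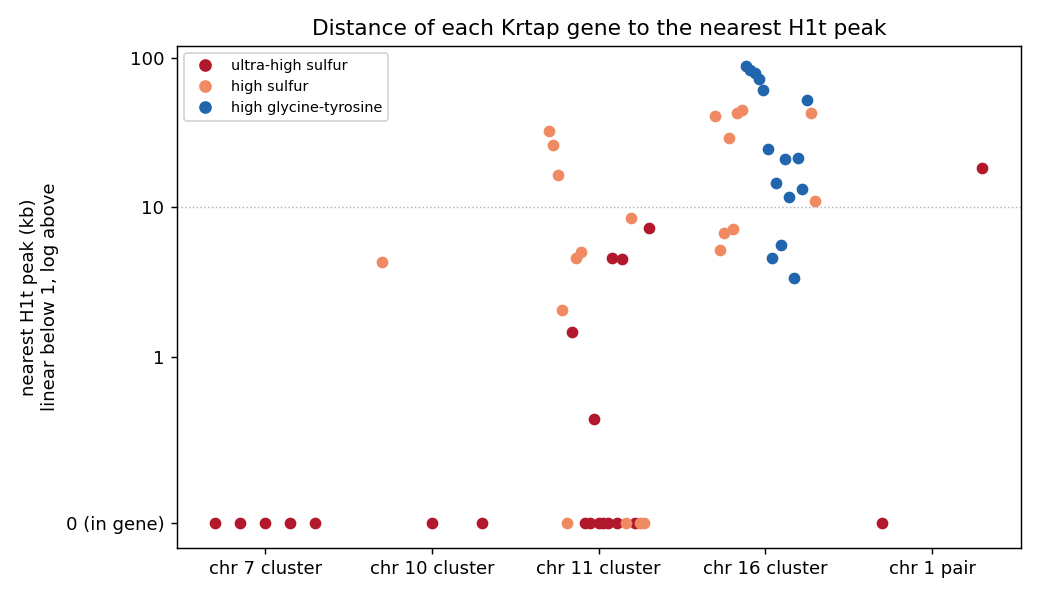
Distance from each Krtap gene to the nearest H1t peak in kb (vertical, linear below 1 and logarithmic above) by cluster, coloured by class, with 0 for a peak in the gene. Genes of the chromosome 7 cluster all lie at 0, while those of chromosome 16 run from 3345 bp to 87532 bp, and the dotted line is at 10 kb.

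Other genes of hair and other clustered families were counted in the same manner. Keratin genes, which encode the filaments that the Krtap proteins surround, had a peak in the gene in 29 of 53 cases (54.7%), 11 of 27 on chromosome 11 and 18 of 26 on chromosome 15. This share is near the 50.4% of all autosomal coding genes, and keratin genes are longer than Krtap genes, with a median of 6594 bp. Just beyond the last Krtap gene of chromosome 11, the hair keratin genes Krt33a, Krt33b, Krt34 and Krt31 had 1 peak each. They are named for their peaks. Of the 27 keratin genes on chromosome 11, 16 had none, and the share with one (40.7%) was below 50.4%. The next lists are short and set beside the same 50.4%. Among 8 genes of hair and epidermal proteins and their cross-linking enzymes, 5 had a peak in the gene and 0 had one within 1 kb of the start. The 5 were Tchh (trichohyalin, with 2 peaks), Lor (loricrin), S100a3 (a calcium-binding protein), Padi1 and Padi3 (enzymes that convert arginine to citrulline). Tgm1, Tgm3 and Tchhl1 had none, and the S100a3 record, of 42125 bp, was the longest of the 8. Among 7 transcription factor genes of the hair follicle, 5 had a peak in the gene, with 3 each in Foxn1 and Lef1. Hoxc13 and Lef1 also had 1 at the start, while Gata3 and Msx2 had none in the gene. Lef1, of 113886 bp, was the longest of the 7. Counts in these lists were not adjusted for gene length. Olfactory receptor genes, also in clusters, had a peak in 54 of 1128 cases (4.79%) and beta-defensin genes in 3 of 42 (7.14%). Their median coding GC contents were 43.9% and 44.97%, against 58.8% for Krtap genes.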

How the data were processed

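Per the submitters' processing notes, Bowtie 1.1.2 and mm10 were used. No source used here states which program called the peaks, with which threshold, or how the input entered. The deposited list has a position, a name of the form that MACS writes and a score per peak, the authors' own value. The file has no header. Positions were turned to counting from 1 and compared with GENCODE M21. Composition was counted as codons of the longest coding sequence per gene, because the protein table planned for the classes was not used here. Members, lists and class thresholds were chosen with earlier results of these data known. The bands of GC content, the split by GC content and coding length, the set of genes under 2 kb, the 50-base lookup, the TATAAA search and the sequences shown were chosen after the values were seen. With 1 library no test was made, and depth and its precision are unknown.

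The text was to name members with a peak in the gene or at the start, the 3 with the most peaks within 10 kb and the farthest in each cluster, and the 5 highest-scoring cluster peaks. Other members named were chosen after their values were seen. Sequence outside coding genes was counted between the first and last gene or peak of a chromosome, with assembly gaps included. The interval counts were tested on simulated data with Python 3.11.15, numpy 2.4.6, pandas 2.3.3 and scipy 1.17.1, and figures were drawn with matplotlib 3.10.9.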

Additional observations from a re-analysis of the deposited data

How the results depend on the processing

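Counts of members with a peak in the gene (19) or at the start (18) were within 1.5 times under the other overlap rules, windows, starts and the removal of scores of 500 or more. With peaks at or above the median score they were 12 and 11, and without the chromosome 11 cluster, which removes 23 genes, both were 8. The median of 4.80 peaks per 100 kb was 0 with flanks of 5 kb and without chromosome 11, and 9.51 without chromosome 16. With peaks at or above the median score, which shortens the list by construction, spacer densities were 16.6 per Mb on chromosome 7, 29.4 on chromosome 11 and 14.0 on chromosome 16. Outside Krtap genes alone, which adds other coding genes, they were 56.5, 71.1 and 33.2 per Mb on these chromosomes. Clusters were the same with gaps of 200 kb and 1 Mb. Excluding exons in place of whole genes was added after seeing the data. The covered share of spacers, an alternative in another unit, stands in the report. No paired analysis was possible because there is 1 library. Without input and read depth, weak peaks cannot be weighed against background.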

Other observations

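The clusters also hold 49 coding genes that do not carry a Krtap symbol, mostly predicted genes with Gm symbols. A peak overlapped 21 of them (42.9%), namely 3 of 5 on chromosome 7, 5 of 12 on chromosome 10, 11 of 18 on chromosome 11 and 2 of 14 on chromosome 16. The share was 50.4% for all autosomal coding genes and 19.9% for those under 2 kb without a Krtap symbol. By codons, 18 of 29 with at least 30% cysteine had a peak, 0 of 8 with at least 35% glycine and tyrosine of the rest, and 3 of 12 others. Those 8 all lie on chromosome 16 and have 144 to 234 bp of coding sequence under 60% GC. The share for other coding genes under 2 kb with such short coding sequence and GC was 8.45%. Class, cluster and coding length cannot be told apart here either. The order of the classes was that of the named Krtap genes (15 of 21, 0 of 15 and 4 of 21). This count was made after the values of the Krtap genes were seen, and several of these genes share coding stretches with Krtap genes. Among the 18 is Gm2696, whose 2 peaks are those of Krtap10-4 and Krtap10-10, so these are counted in both sets.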
